A study of Mus musculus with 10 samples.

Results

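The subject is the miR-183, miR-96 and miR-182 cluster, a set of 3 microRNAs (miRNAs, short RNAs that repress messenger RNAs) whose hairpins lie close together on mouse chromosome 6 and are processed from one primary transcript. Members were chosen by name alone: the rows for miR-183, miR-96 and miR-182 in any arm were taken, and they came to 3 of the 285 miRNAs in the table. Small RNA had been sequenced from livers of mice at 14 weeks of age, 5 labelled control, described as littermates, and 5 labelled TSC1 mutant, described as L-Tsc1KO animals. Tsc1 encodes a subunit of the TSC complex, which restrains mTORC1 signalling. The labels give neither strain, sex, nor the promoter or Cre line behind the deletion, and Tsc1 messenger RNA was not analysed here.

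The cluster is best known from sensory organs and epithelia, where its members are abundant in hair cells, retina and ciliated or secretory cells, and miR-96 is required for hearing. In liver and in cultured cells, members have been linked to SREBP, the transcription factor family of sterol and fatty acid synthesis that acts downstream of mTORC1. They have also been linked to repression of FoxO transcription factors, which promote gluconeogenesis. Because miRNAs choose targets mainly through the seed, bases 2 to 8 from the 5′ end, close seeds allow overlapping targets.

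The mature 5′-arm products are shown because their seeds differ by single bases. Sequences are from RefSeq (GRCm38.p6), 5′ to 3′, with the seed in capitals, and all 3 names matched. The table names the rows without an arm. In older nomenclature such a name stood for the 5′-arm product, but nothing in the sources states the arm counted.
miR-183: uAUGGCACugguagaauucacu
miR-96: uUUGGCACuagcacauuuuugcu
miR-182: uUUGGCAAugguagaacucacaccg

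Positions are counted from 1 at the 5′ end, with the first-named miRNA's base first. The seed of miR-96 differed from that of miR-182 by C8A and from that of miR-183 by U2A. The seed of miR-182 differed from that of miR-183 by both U2A and A8C. Over the whole length compared from the 5′ end without gaps, miR-182 and miR-183 were identical at 18 of 22 bases, or 81.8%, against 59.1% for miR-96 and miR-183 over the same length and 52.2% for miR-96 and miR-182 over 23. Outside the seed alone, miR-182 and miR-183 were identical at 13 of 15 bases, or 86.7%, against 46.7% for miR-96 and miR-183 and 37.5% for miR-96 and miR-182. The letters UGGCA, common to all 3 seeds, were in the seed of 7 of 1679 RefSeq mouse mature miRNAs, or 0.417%. The only other mature miRNA with a seed identical to that of a member was miR-1271-5p, which shares the seed of miR-96, and no row of the table carries its name.

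All 3 hairpins lie on the minus strand, in the transcribed order Mir183, Mir96, Mir182, within 3820 bases. Mir183 is at chr6:30169668-30169737, Mir96 at chr6:30169446-30169551 and Mir182 at chr6:30165918-30165992 (GRCm38). The gap from Mir183 to Mir96 is 116 bases and that from Mir96 to Mir182 is 3453 bases. In the GENCODE M21 annotation no other gene overlaps this span, so the hairpins are neither exonic nor intronic in an annotated host. The nearest gene is Rncr4, a long non-coding RNA on the plus strand at a distance of 3155 bases. The nearest protein-coding genes are Nrf1 at 12459 bases and Ube2h at 41551 bases. Gm25580, annotated as a miscellaneous RNA on the minus strand, lies at 21790 bases. The hairpins are shown with the 5′-arm product in capitals, to place it within each precursor.
Mir183: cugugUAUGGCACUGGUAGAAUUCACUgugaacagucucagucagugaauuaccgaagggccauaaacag
Mir96: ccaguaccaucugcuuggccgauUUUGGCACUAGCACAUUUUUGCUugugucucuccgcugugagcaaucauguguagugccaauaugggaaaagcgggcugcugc
Mir182: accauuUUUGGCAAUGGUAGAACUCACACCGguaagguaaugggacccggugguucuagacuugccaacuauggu

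Libraries held 6228497 to 12129069 miRNA reads in controls and 6489735 to 10901280 in mutants. Values are normalised reads, the authors' scaled read counts. One library stood apart before any comparison of the cluster. In control replicate 2, the 7 epithelial miRNAs of the marker list summed to 36861 normalised reads, against 5049 to 6137 in the other 4 controls and 3170 to 7073 in mutants, and none of the 7 was at 0 in any library. The 3 listed striated muscle miRNAs in the table summed to 5638 there, against 268 to 559 in the other controls and 151 to 919 in mutants. Of that sum miR-1a made up 5534, while miR-206 was at 0.612 times the median of the other controls. Results for the cluster are therefore given with and without it. Liver was checked by miR-122, the dominant hepatocyte miRNA, which averaged 3174500 normalised reads in controls and 2699950 in mutants. In bulk liver, fewer cells of a type and less RNA per cell cannot be told apart.

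miR-182 was the most abundant member and miR-96 the least, and none of the 3 differed between genotypes beyond the spread of the libraries. Each had a lower mean log2 level in mutants than in controls. As fold changes from that scale these were 0.756 for miR-182, 0.804 for miR-183 and 0.841 for miR-96, with intervals that all include no difference. Of the 285 miRNAs, 2.11% passed the threshold as lower in mutants and 10.9% as higher. Of the 3 members, 0 passed in either direction, and 0 had groups that did not overlap, beside 12.6% of all miRNAs. The threshold was a limma p adjusted over all 285 miRNAs of 0.05.

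For miR-182, linked in liver to SREBP signalling, the controls held 2304, 3755, 1704, 1546 and 2572 normalised reads in replicates 1 to 5. The mutants held 1403, 1997, 1462, 1866 and 1894 normalised reads in the same order of labels. The groups overlapped: 3 controls lay above every mutant, and the other 2 fell among the mutants. The control mean was 2376 ± 878 and the mutant mean 1724 ± 272 (SD, n = 5 each). On the log2 scale the change was -0.40 ± 0.24 (SE), with a limma 95% interval of -0.92 to 0.12 and a limma adjusted p of 0.394.

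For miR-183, the member closest to the start of the transcript, the controls held 539, 968, 468, 293 and 725 normalised reads. The mutants held 421, 492, 363, 462 and 502 normalised reads, a narrow band inside the control range. Again 3 controls lay above every mutant, while control replicate 4 was the lowest of all 10 libraries. That library also had the fewest reads in total, and its value rested on 174 reads of miR-183. The control mean was 599 ± 258 and the mutant mean 448 ± 57.3 (SD, n = 5 each). On the log2 scale the change was -0.31 ± 0.28 (SE), with a limma 95% interval of -0.94 to 0.31 and a limma adjusted p of 0.613.

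For miR-96, the member tied to hearing, the controls held 91.1, 201, 86.2, 67.3 and 115 normalised reads. The mutants held 64.3, 92.5, 71.5, 110 and 108 normalised reads. Only 2 controls lay above every mutant, and the lowest library was a mutant, replicate 1. The control mean was 112 ± 52.3 and the mutant mean 89.4 ± 20.9 (SD, n = 5 each). On the log2 scale the change was -0.25 ± 0.30 (SE), with a limma 95% interval of -0.91 to 0.41 and a limma adjusted p of 0.733. Between 40 and 282 reads stood behind each of these values, so counting error was largest for this member.

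**Figure D1:**
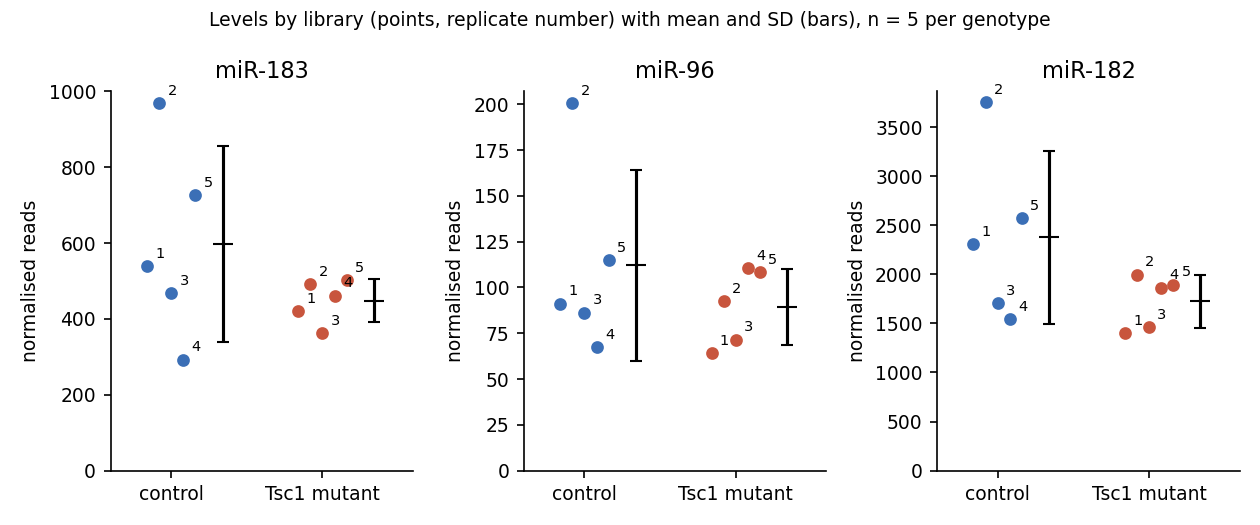
Normalised reads of each member (y axes from 0) in 5 control and 5 Tsc1 mutant libraries, with replicate numbers beside the points and the mean and SD as a bar. Control replicate 2 is the highest library in every panel, at 968 for miR-183, 201 for miR-96 and 3755 for miR-182, and the mutants lie within or just below the range of the other controls.

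The size of the difference depended on control replicate 2, the highest of the 10 libraries for all 3 members. Without it the log2 fold changes were -0.22 ± 0.20 for miR-182, -0.11 ± 0.25 for miR-183 and -0.02 ± 0.24 for miR-96 (SE), with limma adjusted p of 0.662, 0.931 and 0.999. The control means without it were 2031 ± 486 normalised reads for miR-182, 506 ± 179 for miR-183 and 89.9 ± 19.6 for miR-96 (SD, n = 4). For miR-96 that mean is close to the 89.4 of the mutants. Leaving out control replicate 4, the lowest control for each member, moved the log2 fold changes the other way, to -0.54 for miR-182, -0.54 for miR-183 and -0.41 for miR-96. The limma adjusted p was then 0.192, 0.192 and 0.522. The direction with all libraries was thus the same for the 3 members, but its size varied with which controls entered.

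**Figure D2:**
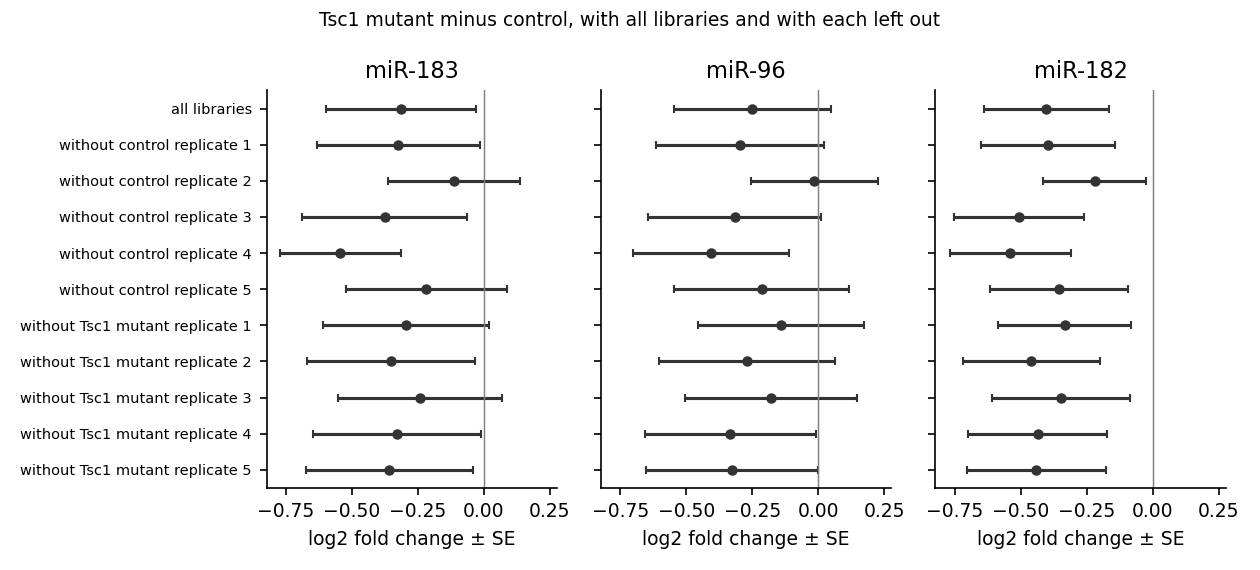
Log2 fold change (Tsc1 mutant minus control, x axis, with its SE) of each member with all libraries and with each library left out in turn. For miR-96 it moves from -0.25 to -0.02 without control replicate 2, and for miR-183 from -0.31 to -0.54 without control replicate 4.

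Summed over its members, the cluster gave 2934, 4924, 2259, 1906 and 3412 normalised reads in controls and 1888, 2582, 1896, 2438 and 2505 in mutants. Means were 3087 ± 1181 and 2262 ± 342 normalised reads (SD, n = 5 each). The difference of the mean log2 sums was -0.38 ± 0.26 (SE), a fold change of 0.767 on that scale. The exact permutation test over 252 splits, 2-sided, gave p = 0.167. The 95% interval, from inverting the same test, ran from 0.509-fold to 1.19-fold. Without control replicate 2 the log2 difference was -0.19 (exact permutation p = 0.365).

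Over all 10 libraries, the controls were more spread than the mutants for every member. The SD of log2 levels was 0.65 in controls and 0.19 in mutants for miR-183, 0.51 and 0.23 for miR-182, and 0.59 and 0.35 for miR-96. Controls were also the more variable group across the table, with a median SD of 0.48 against 0.35 for all 285 miRNAs. The ratio of the SDs was 3.40 for miR-183, higher than that of 95.1% of miRNAs, 2.17 for miR-182 and 1.70 for miR-96, beside a median of 1.38 over all. Part of this rested on control replicate 2, as seen in normalised reads rather than on the log2 scale. Leaving it out lowered the control SD from 258 to 179 normalised reads for miR-183, beside 57.3 in mutants. For miR-182 the control SD fell from 878 to 486, beside 272 in mutants. For miR-96 it fell from 52.3 to 19.6, beside 20.9 in mutants, so the controls were then not the more spread group. These differences in spread were not tested.

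While levels varied between livers, the proportions among members varied less. miR-182 made up 76.8 ± 1.94% of the cluster's reads, miR-183 19.5 ± 1.88% and miR-96 3.75 ± 0.447% (SD over 10 libraries). These are shares of reads and not of molecules, since reads are without molecular identifiers. Preferences of adapter ligation and processing both enter them, and their parts were not tested. Within genotypes, the SD of the log2 level was 0.40 for miR-182, 0.48 for miR-183 and 0.48 for miR-96. The SD of the log2 ratio was 0.18 for miR-182 to miR-183, 0.23 for miR-96 to miR-183 and 0.17 for miR-96 to miR-182. Counting error alone gives 0.077, 0.17 and 0.16 on the same scale, so for the ratios with miR-96 it is most of the observed spread.

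The ratio of miR-182 to miR-183, the pair with the largest sequence likeness, was 4.27, 3.88, 3.64, 5.28 and 3.54 in controls and 3.33, 4.06, 4.03, 4.04 and 3.77 in mutants. Control replicate 4 was the highest, with an exact 95% counting interval of 4.49 to 6.25, and the other 9 libraries lay between 3.33 and 4.27. Controls averaged 4.12 ± 0.706 and mutants 3.85 ± 0.309 (SD, n = 5 each). Compared on the log2 scale, the mutant ratio was 0.940 times the control ratio, with a 95% permutation interval of 0.770 to 1.12 (exact permutation p = 0.524, adjusted p = 0.651 over the 3 ratios).

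The ratio of miR-96 to miR-183, whose hairpins are the closest neighbours, was 0.169, 0.207, 0.184, 0.230 and 0.158 in controls. In mutants it was 0.153, 0.188, 0.197, 0.239 and 0.215, and the groups overlapped throughout. The mutant ratio was 1.05 times the control ratio, with a 95% permutation interval of 0.825 to 1.33 (exact permutation p = 0.651, adjusted p = 0.651). The ratio of miR-96 to miR-182 was 0.0395, 0.0534, 0.0506, 0.0435 and 0.0447 in controls and 0.0458, 0.0463, 0.0489, 0.0592 and 0.0571 in mutants. The 2 highest values were mutants, replicates 4 and 5, and the lowest was control replicate 1. The mutant ratio was 1.11 times the control ratio, with a 95% permutation interval of 0.917 to 1.32 (exact permutation p = 0.183, adjusted p = 0.548). None of the 3 ratios differed between genotypes beyond the spread of the libraries.

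**Figure D3:**
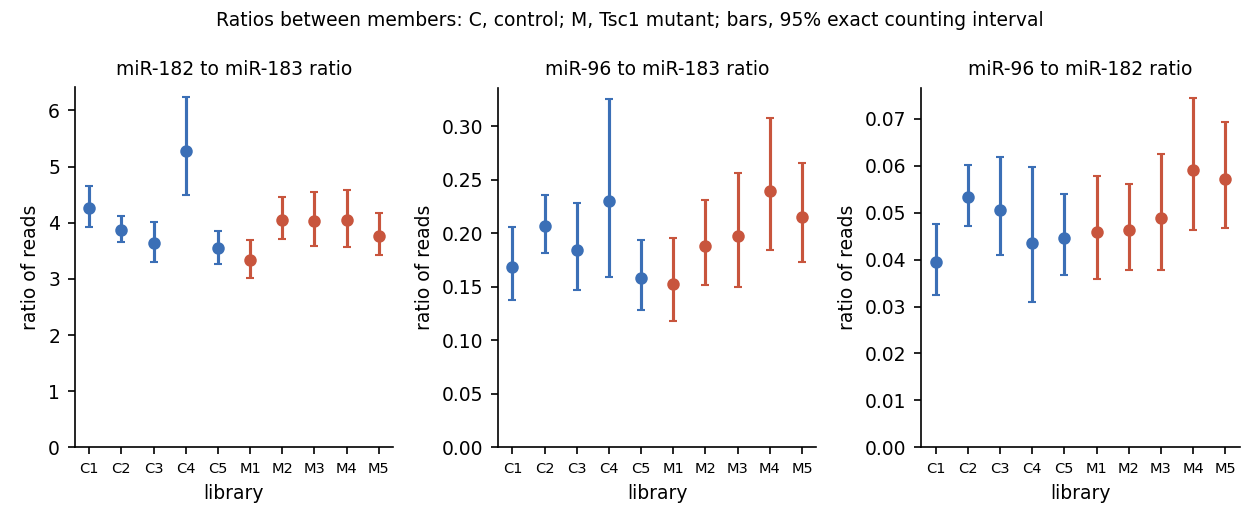
Ratios of reads between members (y axes from 0) in each control (C1 to C5) and Tsc1 mutant (M1 to M5) library, with exact 95% intervals for counting error. The miR-182 to miR-183 ratio stays between 3.33 and 4.27 except in control replicate 4, at 5.28.

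The 3 members rose and fell together from liver to liver. Over the 10 libraries the log2 levels of miR-182 and miR-183 had a Pearson r of 0.93 (permutation p = 0.00016) and a Spearman rho of 0.93 (permutation p = 0.00038). For miR-96 and miR-183, r was 0.90 (permutation p = 0.00046) and rho 0.81 (permutation p = 0.0072). For miR-182 and miR-96, r was 0.93 (permutation p = 0.00042) and rho 0.87 (permutation p = 0.0023). Adjusted over the 3 pairs, the p of r was 0.00046 for each and that of rho lay between 0.0011 and 0.0072. With the genotype means removed, r was 0.93, 0.89 and 0.94 in the same order. Each genotype alone has too few libraries for an r of its own.

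The relation did not rest on control replicate 2 alone. Without it, r was lower, at 0.85 for miR-182 and miR-183, 0.78 for miR-96 and miR-183 and 0.82 for miR-182 and miR-96. With the 2 libraries farthest from the median left out, r was 0.75, 0.85 and 0.76 in that order. All members of one library share its depth and scaling, and the part of these in the correlations was not tested.

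**Figure D4:**
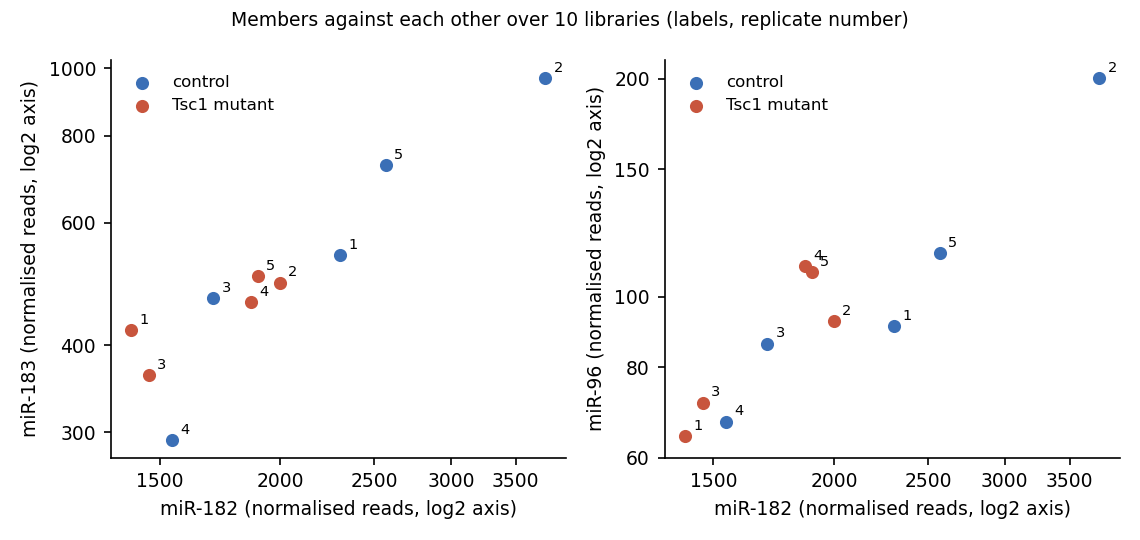
Normalised reads of miR-183 (left) and miR-96 (right) against miR-182, on log2 axes, in 5 control and 5 Tsc1 mutant libraries labelled by replicate. Points of both genotypes lie along one band, with Pearson r of 0.93 in each panel and control replicate 2 at its upper end.

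With all libraries, the 5 miRNAs whose levels most resembled the cluster were epithelial, and 2 of them remained among the first 5 without control replicate 2. Likeness was the Pearson r, over 10 libraries, between a miRNA's log2 level and the mean log2 level of the members, given as a description over the 282 other miRNAs, whose median r was -0.03. The 5 highest were miR-429 at 0.91, miR-200a at 0.88, miR-375 at 0.84, miR-200b at 0.82 and miR-141 at 0.80. Of these, miR-429, miR-200a, miR-200b and miR-141 belong to the miR-200 family, which maintains epithelial identity by repressing Zeb1 and Zeb2, and miR-375 marks endocrine and other epithelial cells. With the genotype means removed, the 5 highest were miR-429 at 0.89, miR-200a at 0.86, the lymphocyte miRNA miR-150 at 0.85, miR-495 of the Dlk1-Dio3 locus at 0.83 and miR-375 at 0.81. All 5 epithelial miRNAs named were highest in control replicate 2, so this order leans on it. The level of miR-495 was 14.9 normalised reads in that library and only 1.68 to 4.10 in the other 4 controls. With the same genotype means removed, which still include control replicate 2, its r without that library was 0.62. The 1.68 of control replicate 4 equals the normalised value of a read there.

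Without control replicate 2, miR-429 was still the highest of the 282, at 0.82, and miR-200a was at 0.71, while miR-375 was at 0.55, miR-200b at 0.45, miR-141 at 0.31, miR-200c at 0.12 and miR-205 at 0.06. The others of the first 5 were then miR-5122 at 0.73, miR-125a-3p at 0.71 and miR-5132 at 0.63, none of them on the epithelial list. Of these, miR-5122 averaged only 12.7 normalised reads in controls and 12.5 in mutants, and miR-5132 18.8 and 12.2. The lymphocyte miR-150 was at 0.59, above miR-375. The likeness to miR-429 and miR-200a thus did not extend to the whole epithelial list. The levels of miR-429 were 150, 731, 93.1, 95.9 and 131 normalised reads in controls and 76.5, 110, 79.9, 123 and 143 in mutants. As with miR-182, Tsc1 mutant replicates 1 and 3 were its lowest mutants, and control replicates 2, 1 and 5 its highest controls. The levels of miR-200a were 2385, 11861, 1709, 1960 and 2227 normalised reads in controls and 1200, 1952, 1472, 2122 and 2213 in mutants. Its lowest 2 libraries were the same mutants. By member, r with miR-429 over the 9 remaining libraries was 0.86 for miR-182, 0.83 for miR-96 and 0.64 for miR-183. For miR-183, r was -0.14 with both miR-200c and miR-205 over these libraries.

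In control replicate 2 the cluster's excess over the other controls, taken against their median, was smaller than that of the epithelial list. It was 1.87-fold for miR-182, 1.92-fold for miR-183 and 2.26-fold for miR-96. Across the 7 epithelial miRNAs it ran from 5.67-fold for miR-200a to 25.5-fold for miR-375, with 6.43-fold for miR-429, 6.81-fold for miR-200b, 9.16-fold for miR-200c, 9.47-fold for miR-205 and 12.2-fold for miR-141. Some markers of other cell types were also higher there, a few by about as much as the cluster. The excess was 2.04-fold for miR-143 of smooth muscle and stellate cells and 2.12-fold for the myeloid miR-223. It was 1.98-fold and 3.36-fold for the neural miR-9 and miR-218, and 13.9-fold and 13.0-fold for the muscle miR-1a and miR-133a. The other rows of these lists were not raised as much. They ran from 1.08-fold (miR-145) to 1.26-fold (miR-214) for stellate and smooth muscle. Leukocyte rows ran from 0.864-fold (miR-342-5p) to 1.34-fold (miR-150) and neural rows from 0.940-fold (miR-137) to 1.13-fold (miR-7b). The muscle miR-206 was at 0.612-fold. By this excess miR-96 ranked 27, miR-183 40 and miR-182 41 among the 285 miRNAs. The parts of epithelial or other RNA in the cluster's level were not tested.

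**Figure D5:**
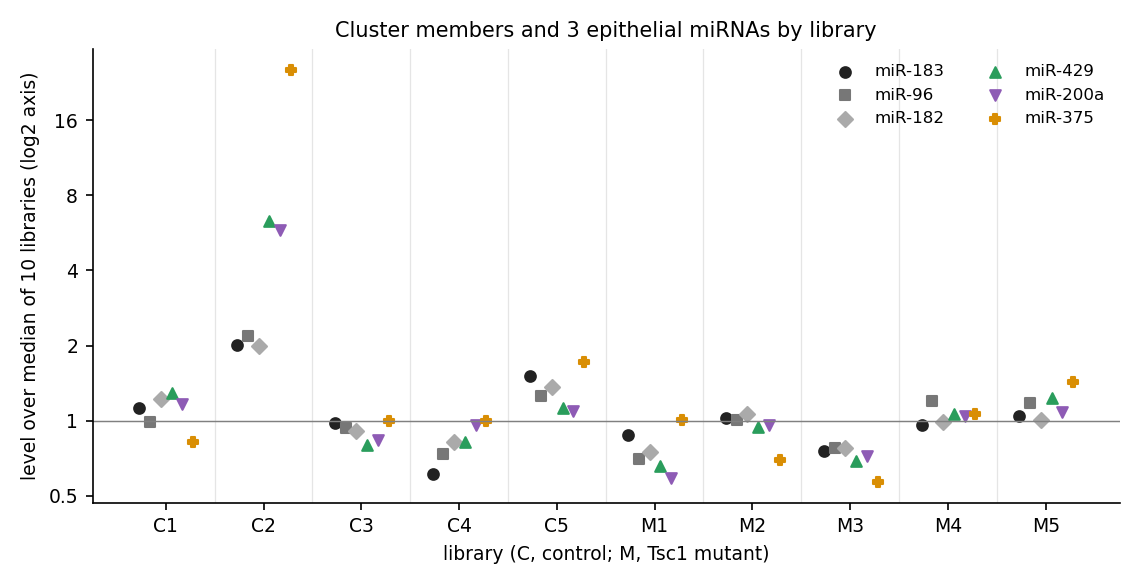
Level of each member and of miR-429, miR-200a and miR-375 over its own median of the 10 libraries (y axis, log2), by control (C) and Tsc1 mutant (M) library. In control replicate 2 the members are near 2 while miR-429 and miR-200a are at 6.28 and 5.81 and miR-375 is at 25.4. All members, miR-429 and miR-200a are below 1 in control replicates 3 and 4 and in Tsc1 mutant replicates 1 and 3.

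Between genotypes the epithelial list, like the cluster, held no call. Of the 7 miRNAs, 0 passed the limma threshold, all 7 had a lower fitted level in mutants, and their median log2 fold change was -0.74, beside -0.06 over all 285 miRNAs and -0.31 over the 3 members. Below 0 were 57.5% of all miRNAs. Without control replicate 2, 6 of the 7 epithelial miRNAs were below 0 with a median of -0.15, the 3 members had a median of -0.11 and all miRNAs one of -0.06. The largest epithelial difference with all libraries was that of miR-375, at -1.16 ± 0.82 (SE; limma adjusted p = 0.509).

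Lists of miRNAs connected with the cluster's known roles were set beside it. Of 11 listed miRNAs linked to SREBP and lipid metabolism, all in the table, 1 passed as higher and 0 as lower, with a median log2 fold change of 0.06. With 10.9% of all miRNAs called higher and 2.11% lower, this is near the background. The one that rose was miR-370, a miRNA of the Dlk1-Dio3 locus that has been linked to fatty acid oxidation, from 10.4 to 37.3 normalised reads, a log2 change of 1.78 ± 0.33 (SE; limma adjusted p = 0.00235). The intronic miRNA of the Srebf2 gene, miR-33, was at 319 normalised reads in controls and 316 in mutants, with a log2 fold change of 0.09 ± 0.36 (SE). The most abundant of the list, miR-122, was at -0.21 ± 0.19 (SE).

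Of 11 listed miRNAs reported to target FoxO factors, 10 were in the table and 0 passed in either direction, beside the same background. Their median log2 fold change was -0.11, with 8 of the 10 below 0. The most abundant, miR-27b, was at 103600 normalised reads in controls and 100743 in mutants, a log2 fold change of -0.04 ± 0.11 (SE). The smallest limma adjusted p of the list was 0.110, for miR-222 at -0.55 ± 0.20 (SE).

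Among the marker lists of other cell types, 2 rows passed the threshold, where 10.9% of all miRNAs passed as higher and 2.11% as lower. They were miR-802, of the 5 hepatocyte miRNAs, at 1.72 ± 0.24 on the log2 scale (SE; limma adjusted p = 0.000258), and miR-137, of the 7 neural miRNAs in the table, at 0.90 ± 0.26 (SE; limma adjusted p = 0.0395). Both were higher in mutants. None passed among 8 rows of leukocyte, 2 of endothelial, 5 of stellate and smooth muscle, 3 of erythroid and 3 of striated muscle miRNAs, nor for miR-375, the single pancreas marker present. The most abundant members of these lists were miR-122, miR-7a, miR-146a, miR-126-3p, miR-143, miR-486 and miR-1a.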

How the data were processed

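Small RNA libraries from 10 livers, 5 per genotype, were read from 1 deposited table of 285 miRNAs. Its values are a normalised signal: read counts that the authors divided by a factor for each library. DESeq is named, without its role, by the submitters' processing notes. Aligner, annotation and filters: not given in the sources. Each value was a whole multiple of 1 step per library within 0.001 (100% of values), which gave the whole reads. Columns were matched by library number. The numbers were consecutive within a genotype, so genotype and anything that followed their order cannot be told apart.

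Log2(normalised value + 1) was compared with limma 3.58.1 in R 4.3.3 (genotype model, empirical Bayes with intensity trend), over miRNAs averaging 5 or more normalised reads (all 285), with Benjamini-Hochberg adjustment. Fold changes are on that log2 scale. Sums and ratios were compared by 2-sided exact permutation tests, for which 252 splits exist. Correlations used 100000 permutations. Intervals on reads are exact binomial and cover counting error only, since reads are without molecular identifiers. The labels do not say how the livers were chosen, and p-values measure the spread between them. Of 45 pairs of libraries, 0 agreed within sampling noise. The fit was tested on simulated data.

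Members and lists were chosen with earlier results of these data known. The text names every member, the 5 miRNAs most like their mean with and without genotype means, all listed epithelial miRNAs, and the most abundant and the called members of each list. The smallest adjusted p, miR-33, values for miR-429 and miR-200a by library, and miRNAs named for likeness or excess beside control replicate 2 were chosen after values were seen. Alternatives were other pseudocounts, filters, scalings and limma settings, a replicate block, and libraries left out. RefSeq sequences and the GENCODE M21 annotation are of GRCm38. Figures used matplotlib 3.10.9.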

Additional observations from a re-analysis of the deposited data

Results flagged for a closer look

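In 7 of 28 groups of 5 values tested, 1 library lay far from the other 4, where chance gives about 1.4. The groups include the epithelial list, which was written with earlier results of these data known. The count can therefore not be judged against that rate. All 7 were epithelial miRNAs in control replicate 2, whose levels move together, so they are not separate events. Its values in normalised reads were 11861 for miR-200a (others 1709 to 2385), 20271 for miR-200b (2778 to 3688), 2535 for miR-200c (232 to 319) and 392 for miR-141 (28.6 to 53.5). They were 731 for miR-429 (93.1 to 150), 990 for miR-375 (32.0 to 66.7) and 81.8 for miR-205 (5.59 to 13.8). No value of miR-183, miR-96 or miR-182, of their sum or of their ratios stood apart by the same measure in either genotype.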

How the results depend on the processing

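Under all 22 alternatives, 0 of the 3 members passed the limma threshold. The log2 fold change ran from -0.54 to -0.08 for miR-182 and from -0.54 to -0.04 for miR-183. For miR-96 it changed sign in 1 setting, to 0.11 without both replicates 1 and the second control. With 1 library left out at a time, the log2 difference of the sum ran from -0.54 to -0.19 and the ratio of miR-96 to miR-182 from 0.099 to 0.20. The ratio of miR-182 to miR-183 ran from -0.14 to 0.0039, changing sign without control replicate 4, and that of miR-96 to miR-183 from -0.0055 to 0.15, changing sign without Tsc1 mutant replicate 4. Over all miRNAs, 31 were higher and 6 lower. A minimum mean of 100 normalised reads gave 19 and 3, with fewer miRNAs tested. Leaving out 1 library gave 28 to 34 higher and 2 to 10 lower. Lower counts were 23 with array weights, 11 without both replicates 1 and 13 with the second control left out as well, and the cause was not tested. Same-numbered libraries deviated together in some pairs only (correlations of 0.81, 0.16, -0.02, 0.46 and 0.05), and 4 of 10 libraries were closest to their own number, so the numbers were not taken as pairs. A replicate block gave 10 lower, left all 3 members short of the threshold (limma adjusted p of 0.182 for miR-182) and gave an exact sign-flip p of 0.188 for the sum. TMM scaling and 2 count models were planned and not run. In their place voom on the whole reads was added after the data were seen. Depth limits miR-96 most, with as few as 40 reads in a library.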
